A study of Mus musculus with 12 samples.

Results

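Transcripts of 10 genes that make, conjugate, move or sense bile acids were followed in mouse liver. They are *Cyp7a1*, *Cyp8b1*, *Cyp27a1*, *Baat*, *Abcb11*, *Abcb4*, *Abcg5*, *Slc10a1*, *Nr1h4* and *Nr0b2*, chosen by gene symbol from the 22252 genes listed for each liver library. All 10 were above 0 in all 4 liver libraries and so belonged to the 12485 genes tested. The mice were male C57BL/6J animals whose *Nr3c1*, the gene of the glucocorticoid receptor (GR), had a floxed exon 3. GRf/f mice carried no Cre, and GRmKO mice carried *Acta1*-Cre, whose skeletal actin promoter directs loss of functional receptor to myofibers and was not meant to act in hepatocytes. Drinking water held 1% ethanol, alone (vehicle) or with 100 µg/mL corticosterone (CORT), which is the natural glucocorticoid of mice, for 4 weeks from 8 weeks of age. Gastrocnemius, liver and gonadal white adipose tissue (WAT) gave 12 libraries, each from RNA pooled from 3 mice and each the sole library of its group.

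Bile acids are made in hepatocytes from cholesterol. *Cyp7a1* encodes the rate-limiting enzyme of the classical pathway, *Cyp8b1* the sterol 12α-hydroxylase that steers the product towards cholic acid, and *Cyp27a1* the mitochondrial enzyme that oxidizes the side chain and opens the alternative pathway. The acids are conjugated by the product of *Baat*, exported into bile through the bile salt pump of *Abcb11* and taken back from portal blood by the carrier of *Slc10a1*. *Abcb4* moves phosphatidylcholine into bile, and *Abcg5* encodes a subunit of the sterol exporter whose other subunit comes from *Abcg8*. *Nr1h4* encodes FXR, the nuclear receptor that senses bile acids, and *Nr0b2* encodes SHP, a corepressor that FXR induces and that acts on *Cyp7a1* and *Cyp8b1*.

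The 4 liver libraries held 20471247 to 20940660 expected counts, and 14313 to 14467 genes were above 0. Levels are given in CPM, the expected count scaled to the library total. A count of 3 corresponded to 0.143 to 0.147 CPM, below every member. *Alb*, *Ttr* and the other 4 hepatocyte markers took 7.25% to 12.9% of all counts, and 6 markers of muscle and fat summed to 0.387 to 3.78 CPM. *Nr3c1* in liver was at 58.0 CPM in GRf/f vehicle, 45.2 in GRf/f CORT, 60.8 in GRmKO vehicle and 49.6 in GRmKO CORT, so the GRmKO livers were not below the GRf/f livers. In gastrocnemius it was at 113 and 90.4 CPM in GRf/f mice (vehicle and CORT) and at 46.4 and 35.5 CPM in GRmKO mice. Reads from the exons outside the deleted one still count towards it.

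A gene was called changed when its NOISeq probability, the distance of its change from that between simulated technical samples, reached 0.9. The probability is no p-value, and since each group is 1 library, no test across mice could be made. Changes are log2 ratios of CPM after adding 0.5 CPM to both sides, and 95% intervals in parentheses cover counting error only, not the spread between mice or pools. In GRf/f liver, 613 of 12485 genes (4.91%) were called with CORT, and in GRmKO liver 274 (2.19%). Between genotypes, 70 genes (0.561%) were called under vehicle and 174 (1.39%) under CORT. The comparisons share libraries, so their values are not independent of each other.

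With CORT, *Cyp8b1* rose in both genotypes, *Cyp7a1* fell in GRmKO liver and *Abcg5* fell in GRf/f liver. Thus 2 of 10 members were called in GRf/f liver, against 4.91% of all genes tested, and 2 of 10 in GRmKO liver, against 2.19%. Under vehicle no member was called between genotypes, where 0.561% of all genes were. Under CORT, *Nr0b2* was higher and *Cyp8b1* lower in GRmKO than in GRf/f liver, 2 of 10 members against 1.39% of all genes. The median change of the members was 0.22 with CORT in GRf/f and 0.34 in GRmKO liver, beside 0.00 and 0.05 over all genes tested. Members lay on both sides of 0 in each comparison, with 6 above and 4 below in GRf/f and 7 above and 3 below in GRmKO liver.

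**Figure D1:**
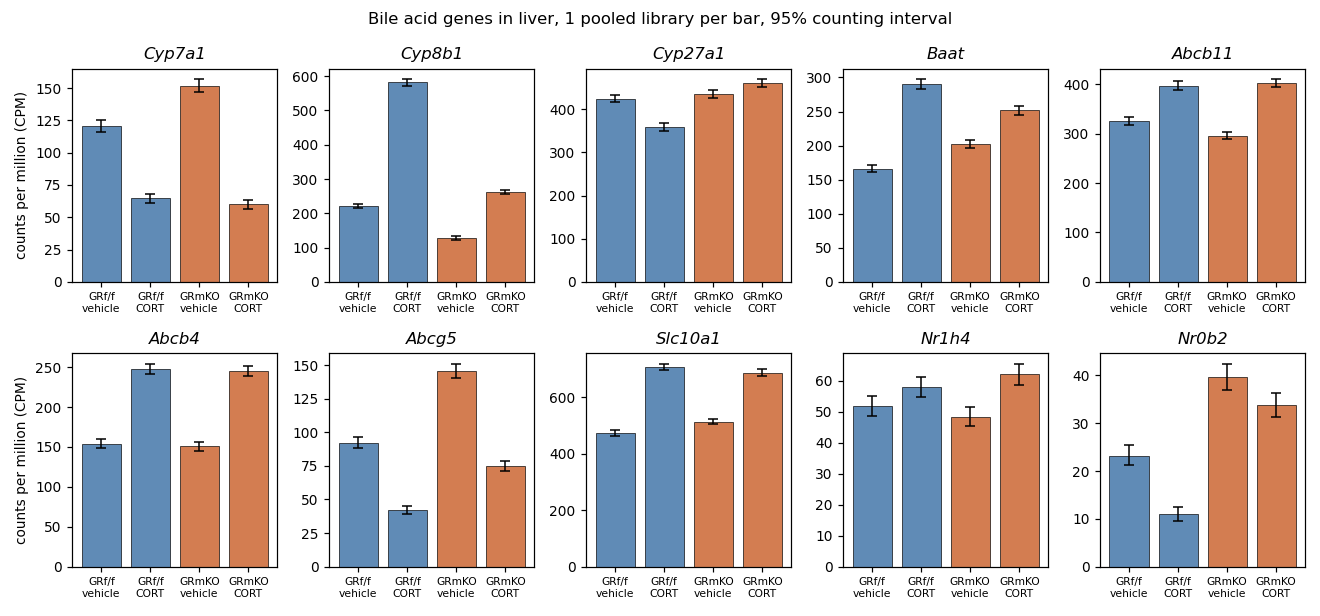
Level of each member (CPM, vertical axis from 0) in the 4 liver libraries, GRf/f in blue and GRmKO in orange, with 95% Wilson intervals that cover counting error only. *Cyp8b1* stands highest in GRf/f CORT at 582 CPM, and *Nr0b2* stands lowest in the same library at 10.9 CPM.

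*Cyp7a1* (ENSMUST00000029905, GRCm38 chr4:6265612-6275633, minus strand, 6 exons) had the lowest levels in the CORT libraries of both genotypes. It was at 121 CPM (116 to 125) in GRf/f vehicle, 64.7 CPM (61.3 to 68.3) in GRf/f CORT, 152 CPM (147 to 157) in GRmKO vehicle and 59.9 CPM (56.6 to 63.3) in GRmKO CORT. Both CORT libraries were thus below both vehicle libraries. With CORT the level was 1.86-fold lower in GRf/f liver, a log2 change of -0.89 (-1.0 to -0.80) that was not called, and 2.54-fold lower in GRmKO liver, a change of -1.34 (-1.44 to -1.25) that was called. Between genotypes the log2 difference, GRmKO over GRf/f, was 0.33 (0.26 to 0.41) under vehicle and -0.11 (-0.22 to 0.00) under CORT, and neither was called. The change with CORT was more negative in GRmKO than in GRf/f liver by 0.44 in size (-0.58 to -0.31 on the log2 scale), a difference that could not be tested over mice.

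*Cyp8b1* (ENSMUST00000062474, GRCm38 chr9:121914356-121916305, minus strand, a single exon) moved the other way. It was at 220 CPM (214 to 227) in GRf/f vehicle, 582 CPM (572 to 593) in GRf/f CORT, 127 CPM (123 to 132) in GRmKO vehicle and 262 CPM (255 to 269) in GRmKO CORT. It rose 2.64-fold with CORT in GRf/f liver, a log2 change of 1.40 (1.35 to 1.45), and 2.06-fold in GRmKO liver, a change of 1.04 (0.97 to 1.11). The GRmKO library was below the GRf/f library under both treatments, at a log2 difference of -0.79 (-0.86 to -0.72) under vehicle, not called, and -1.15 (-1.20 to -1.10) under CORT, called. The GRmKO call with CORT was lost when libraries were scaled by TMM or median-of-ratios factors, or when genes above 0 in either library were tested, with a log2 change of 0.97 under TMM. Both other calls of *Cyp8b1* held under all 7 NOISeq alternatives.

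The bases just upstream of the *Cyp8b1* start site are shown because the gene was called in 3 comparisons. Elements were looked for in the 250 bases upstream of RefSeq start sites (GRCm38.p6) on both strands, a search chosen after the expression values were seen. They were CAAAGTCCA, an element of the hepatocyte nuclear factor HNF4, CAAGGNCA, that of LRH-1 (the product of *Nr5a2*), AGGNCANTGNCCT, the inverted repeat of FXR, TTATGTAA, the D-box of DBP and its relatives, and GNACANNNTGTNC, the palindrome of GR. Of 32851 promoters in the table, 0.384%, 5.53%, 0.0852%, 0.819% and 0.387% held them in that order. For 8 of the 10 members the table had an entry, and *Cyp7a1* and *Baat* had none. No entry of a member held the D-box or the GR palindrome as spelled here. In *Cyp8b1* the HNF4 element at -67 to -59 and the LRH-1 element at -60 to -53 overlap, and capitals mark both.
*Cyp8b1*, chr9:121916306-121916555, minus strand: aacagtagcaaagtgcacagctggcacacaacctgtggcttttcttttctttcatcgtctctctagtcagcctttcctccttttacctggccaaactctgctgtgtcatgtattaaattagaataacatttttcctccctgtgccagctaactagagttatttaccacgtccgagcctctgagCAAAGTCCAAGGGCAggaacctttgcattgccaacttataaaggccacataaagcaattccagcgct

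*Cyp27a1* (ENSMUST00000027356, GRCm38 chr1:74713574-74737892, plus strand, 9 exons) moved less than the other 2 hydroxylases in both CORT comparisons. It was at 425 CPM in GRf/f vehicle, 359 in GRf/f CORT, 435 in GRmKO vehicle and 462 in GRmKO CORT. The log2 change with CORT was -0.24 (-0.29 to -0.20) in GRf/f and 0.09 (0.04 to 0.13) in GRmKO liver, and the difference between genotypes was 0.03 (-0.01 to 0.08) under vehicle and 0.36 (0.32 to 0.41) under CORT. None of these 4 changes was called.

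Ratios within a library do not depend on how libraries are scaled. The count ratio of *Cyp8b1* to *Cyp7a1* was 1.83 (1.74 to 1.92) in GRf/f vehicle, 9.0 (8.50 to 9.53) in GRf/f CORT, 0.839 (0.797 to 0.884) in GRmKO vehicle and 4.38 (4.12 to 4.66) in GRmKO CORT. Both CORT libraries thus had higher ratios than both vehicle libraries, and within each treatment the GRmKO library had the lower ratio. The ratio of *Cyp27a1* to *Cyp7a1* was 3.52 and 5.55 in GRf/f vehicle and CORT and 2.87 and 7.71 in GRmKO vehicle and CORT. These ratios compare counts and not molecules, since the transcripts differ in length.

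**Figure D2:**
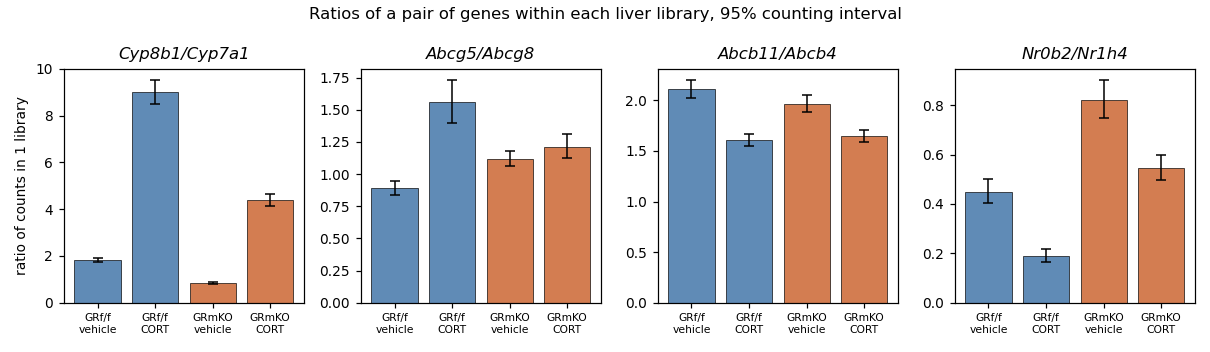
Ratio of the counts of a pair of genes within each liver library (vertical axis from 0), GRf/f in blue and GRmKO in orange, with 95% counting intervals. The *Cyp8b1* to *Cyp7a1* ratio goes from 1.83 to 9.0 with CORT in GRf/f and from 0.839 to 4.38 in GRmKO liver.

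*Baat* (ENSMUST00000043056, GRCm38 chr4:49489422-49506557, minus strand, 4 exons), which joins bile acids to taurine or glycine, was at 166 CPM in GRf/f vehicle, 291 in GRf/f CORT, 202 in GRmKO vehicle and 252 in GRmKO CORT. Its level was highest and lowest in the GRf/f libraries, with the GRmKO libraries between them. The log2 change with CORT was 0.80 (0.75 to 0.87) in GRf/f and 0.32 (0.26 to 0.38) in GRmKO liver, neither called. The change was smaller in GRmKO liver by 0.49 in size (-0.57 to -0.40).

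The exporters of bile salts and phospholipid were higher in the CORT library of each genotype, without a call. *Abcb11* (ENSMUST00000102710, GRCm38 chr2:69238282-69342616, minus strand, 28 exons) was at 326 CPM in GRf/f vehicle, 398 in GRf/f CORT, 296 in GRmKO vehicle and 403 in GRmKO CORT. The log2 change with CORT was 0.29 (0.24 to 0.33) in GRf/f and 0.44 (0.40 to 0.49) in GRmKO liver. *Abcb4* (ENSMUST00000003717, GRCm38 chr5:8893717-8959231, plus strand, 28 exons) was at 154, 248, 151 and 245 CPM in the same order. Its change with CORT was 0.68 (0.62 to 0.75) in GRf/f and 0.70 (0.64 to 0.77) in GRmKO liver, which differed by 0.02 (-0.07 to 0.11). Between genotypes its log2 difference was -0.03 (-0.11 to 0.04) under vehicle and -0.01 (-0.07 to 0.04) under CORT, within counting error of 0 on both sides. Neither exporter was called in any of the 4 comparisons. The count ratio of *Abcb11* to *Abcb4* was 2.11 and 1.97 in the GRf/f and GRmKO vehicle libraries and 1.61 and 1.64 in the CORT libraries.

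The FXR element occurs in the *Abcb11* entry, which is printed because it was the only member entry that held it, and this pump is a known target of FXR. Capitals mark the inverted repeat at -63 to -51.
*Abcb11*, chr2:69342617-69342866, minus strand: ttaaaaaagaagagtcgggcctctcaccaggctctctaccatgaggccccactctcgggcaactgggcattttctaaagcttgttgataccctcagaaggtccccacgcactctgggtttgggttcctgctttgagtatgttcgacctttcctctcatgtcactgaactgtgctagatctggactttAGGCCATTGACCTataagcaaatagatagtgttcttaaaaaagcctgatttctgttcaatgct

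*Abcg5* (ENSMUST00000066175, GRCm38 chr17:84658234-84683011, minus strand, 13 exons) was lower in the CORT library of each genotype. It was at 92.3 CPM (88.3 to 96.5) in GRf/f vehicle, 42.3 CPM (39.5 to 45.2) in GRf/f CORT, 146 CPM (141 to 151) in GRmKO vehicle and 74.6 CPM (71.0 to 78.4) in GRmKO CORT. The fall in GRf/f liver was 2.18-fold, a log2 change of -1.12 (-1.24 to -1.01) that was called under all 7 NOISeq alternatives too. In GRmKO liver the level was 1.95-fold lower, a change of -0.96 (-1.06 to -0.88) that was not called, though it was with TMM or median-of-ratios factors and with a filter on the mean count. GRmKO liver had the higher level under both treatments, by 0.66 (0.58 to 0.74) under vehicle and 0.81 (0.70 to 0.94) under CORT, neither called.

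*Abcg8*, which encodes the partner subunit and is read from the opposite strand, was at 104 CPM (99.5 to 108) in GRf/f vehicle, 27.1 CPM (25 to 29.5) in GRf/f CORT, 131 CPM (126 to 136) in GRmKO vehicle and 61.4 CPM (58.2 to 64.9) in GRmKO CORT. It fell with CORT in both genotypes, by 1.92 (-2.07 to -1.80) and 1.08 (-1.18 to -0.99) on the log2 scale, and under CORT it was 2.26-fold higher in GRmKO than in GRf/f liver, a called difference of 1.16 (1.03 to 1.32). The count ratio of *Abcg5* to *Abcg8* was 0.889 (0.836 to 0.946) in GRf/f vehicle, 1.56 (1.40 to 1.73) in GRf/f CORT, 1.12 (1.06 to 1.18) in GRmKO vehicle and 1.21 (1.13 to 1.31) in GRmKO CORT. The 2 subunits thus kept about the same ratio in GRmKO liver and not in GRf/f liver, where *Abcg8* was reduced further than *Abcg5*. The retained *Abcg8* transcript (ENSMUST00000045714) spans chr17:84683121-84700333, while other isoforms of the gene start inside *Abcg5*. The sequence between the start sites of the 2 retained transcripts is shown because these are read outward from it. It spans 109 bases, shares none with an exon of either transcript, and held none of the 5 elements.
*Abcg5* to *Abcg8*, chr17:84683012-84683120, plus strand: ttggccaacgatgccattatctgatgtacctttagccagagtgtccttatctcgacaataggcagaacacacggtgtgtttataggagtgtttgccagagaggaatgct

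*Slc10a1* (ENSMUST00000095572, GRCm38 chr12:80953183-80968705, minus strand, 5 exons), the sodium-dependent carrier that brings conjugated bile acids back into hepatocytes had levels that followed treatment more than genotype. It was at 473 CPM in GRf/f vehicle, 707 in GRf/f CORT, 513 in GRmKO vehicle and 687 in GRmKO CORT. The CORT library was above the vehicle library in each genotype, with a log2 change of 0.58 (0.54 to 0.62) in GRf/f and 0.42 (0.38 to 0.46) in GRmKO liver, neither called. Genotypes differed by 0.12 (0.08 to 0.16) under vehicle and -0.04 (-0.08 to -0.01) under CORT.

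*Nr1h4* (ENSMUST00000058126, GRCm38 chr10:89454234-89533585, minus strand, 9 exons), the FXR gene, was at 51.7 CPM (48.7 to 54.9) in GRf/f vehicle, 57.8 CPM (54.6 to 61.2) in GRf/f CORT, 48.2 CPM (45.3 to 51.3) in GRmKO vehicle and 62.0 CPM (58.7 to 65.4) in GRmKO CORT. No change of it was called, and the differences between genotypes, -0.10 (-0.23 to 0.02) under vehicle and 0.10 (-0.02 to 0.21) under CORT, were within counting error.

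*Nr0b2* (ENSMUST00000042706, GRCm38 chr4:133553376-133556536, plus strand, 2 exons), the gene of SHP, had the largest difference between genotypes of the 10 members under CORT. It was at 23.2 CPM (21.2 to 25.4) in GRf/f vehicle, 10.9 CPM (9.60 to 12.5) in GRf/f CORT, 39.7 CPM (37.1 to 42.5) in GRmKO vehicle and 33.8 CPM (31.3 to 36.3) in GRmKO CORT. Both GRmKO libraries were thus above both GRf/f libraries. Under CORT the GRmKO level was 3.08-fold that of GRf/f, a log2 difference of 1.58 (1.41 to 1.85) that was called under all 7 NOISeq alternatives too, and under vehicle the difference of 0.76 (0.61 to 0.94) was not called. The change with CORT was -1.05 (-1.32 to -0.85) in GRf/f liver, from 486 to 224 counts, and -0.23 (-0.38 to -0.09) in GRmKO liver, neither called. NOISeq weighs the absolute difference as well as the ratio, and *Nr0b2* had the fewest counts of the members. The change was less negative in GRmKO liver by 0.82 (0.58 to 1.12). Of the 10 members this was the widest gap between genotypes in the change with CORT, and it too has no test over mice.

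The ratio of *Nr0b2* to *Nr1h4* counts was 0.449 (0.402 to 0.50) in GRf/f vehicle, 0.189 (0.163 to 0.218) in GRf/f CORT, 0.823 (0.749 to 0.903) in GRmKO vehicle and 0.545 (0.496 to 0.598) in GRmKO CORT. The intervals of GRf/f vehicle and GRmKO CORT overlap only at their ends, which does not show equal ratios. The other 2 libraries stand apart from them and from each other. The upstream bases of *Nr0b2* are shown because it was the member with the largest called difference between genotypes. Capitals mark the LRH-1 element at -201 to -194, and the FXR repeat in the spelling searched was not among these letters.
*Nr0b2*, chr4:133553126-133553375, plus strand: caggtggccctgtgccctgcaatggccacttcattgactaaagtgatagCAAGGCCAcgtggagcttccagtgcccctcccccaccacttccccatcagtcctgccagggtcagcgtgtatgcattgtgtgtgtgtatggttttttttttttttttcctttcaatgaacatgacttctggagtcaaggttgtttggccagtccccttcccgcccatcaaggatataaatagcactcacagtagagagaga

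**Figure D3:**
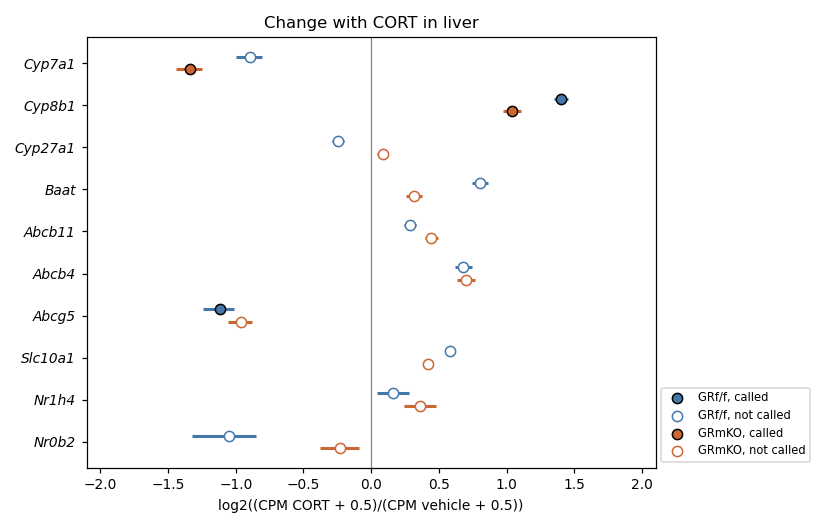
Log2 change of each member with CORT in GRf/f (blue) and GRmKO (orange) liver, filled where called, with 95% counting intervals as bars. *Cyp8b1* lies to the right at 1.40 and 1.04, and *Cyp7a1* and *Abcg5* lie to the left in both genotypes.

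**Figure D4:**
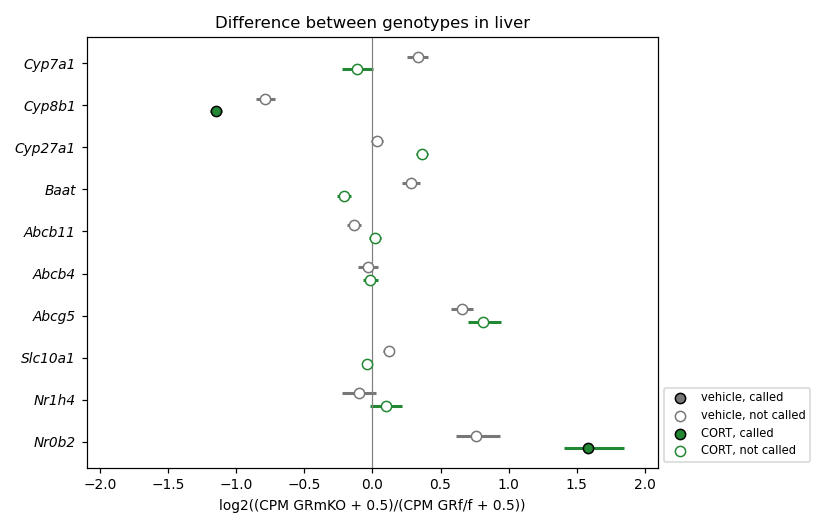
Log2 difference of each member between genotypes, GRmKO over GRf/f, under vehicle (grey) and CORT (green), filled where called, with 95% counting intervals as bars. Called differences were those of *Nr0b2* at 1.58 and *Cyp8b1* at -1.15, both under CORT.

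Per kilobase of transcript, the order of the levels in GRf/f vehicle liver ran from *Slc10a1* at 283 CPM/kb through *Cyp27a1* at 225, *Cyp8b1* at 113, *Baat* at 85.7 and *Abcb11* at 66.6 to *Nr0b2* at 20.5 CPM/kb. The counting intervals of *Abcg5* at 39.3 (37.6 to 41.1) and *Abcb4* at 37.8 (36.5 to 39.1) CPM/kb overlapped. Those of *Cyp7a1* at 28.9 (27.8 to 30.1) and *Nr1h4* at 26.3 (24.8 to 27.9) CPM/kb overlapped only at their ends, and overlap does not show equal levels. In GRf/f CORT liver *Cyp8b1* stood second at 299 CPM/kb, above *Cyp27a1* at 190 CPM/kb, and *Cyp7a1* at 15.5 CPM/kb was ninth. In GRmKO vehicle liver *Cyp8b1* followed at 65.3 CPM/kb, below *Baat* at 104 CPM/kb, and in GRmKO CORT liver *Cyp7a1* was last at 14.3 CPM/kb. *Slc10a1* was first in all 4 libraries. The summed level of the 10 members was 2053 CPM in GRf/f vehicle, 2760 in GRf/f CORT, 2110 in GRmKO vehicle and 2540 in GRmKO CORT, or 0.205% to 0.276% of all counts.

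The other listed genes of bile acid metabolism numbered 54, of which 48 were above 0 in all 4 liver libraries. With CORT, 5 rose and 7 fell in GRf/f liver (12 of 48, against 4.91% of all genes) and 3 rose and 6 fell in GRmKO liver (9 of 48, against 2.19%). Between genotypes none of the 48 was called under vehicle, against 0.561% of all genes, and *Abcg8* and *Ugt2b1* were called under CORT, against 1.39%. The median change of the 48 was -0.14 in GRf/f and -0.13 in GRmKO liver, beside 0.00 and 0.05 over all genes tested.

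Among 17 tested enzymes of the ring and the side chain, 4 rose and 1 fell with CORT in GRf/f liver, and 2 rose and 1 fell in GRmKO liver. *Cyp7b1*, the oxysterol 7α-hydroxylase of the alternative pathway, was the one that fell. It was at 514 CPM (503.9 to 523.3) in GRf/f vehicle, 113 CPM (108 to 118) in GRf/f CORT, 268 CPM (261 to 275) in GRmKO vehicle and 93.8 CPM (89.7 to 98.1) in GRmKO CORT, so that the log2 change was -2.18 (-2.25 to -2.12) in GRf/f and -1.51 (-1.59 to -1.44) in GRmKO liver. Under vehicle it was lower in GRmKO than in GRf/f liver by 0.94 in size (-0.99 to -0.89), which was called only with a mean of at least 10 counts, a threshold of 0.8 or technical samples at whole depth. *Cyp39a1*, an oxysterol 7α-hydroxylase, rose from 4.81 to 65.7 CPM in GRf/f and from 9.67 to 67.4 CPM in GRmKO liver, changes of 3.64 (3.48 to 4.07) and 2.74 (2.59 to 3.02). *Akr1d1*, the 5β-reductase of the steroid ring, rose from 110 to 340 CPM in GRf/f liver (1.62) and went from 180 to 264 CPM in GRmKO liver (0.55, not called). The change of *Akr1d1* was smaller in GRmKO liver by 1.07 in size (-1.16 to -0.98).

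*Acnat1* and *Acnat2* lie beside *Baat* on chromosome 4 and encode related acyltransferases. *Acnat2* rose from 2.71 to 202 CPM with CORT in GRf/f liver and from 8.86 to 104 CPM in GRmKO liver, log2 changes of 5.98 (5.84 to 6.62) and 3.49 (3.34 to 3.79). This was the largest change with CORT among the members and the other bile acid genes tested. *Acnat1* rose from 5.73 to 15.9 CPM in GRf/f liver (1.39) and was at 9.75 and 10.46 CPM in GRmKO liver (0.10, not called). The 2 genes resemble each other and *Baat* in sequence, so reads may have been divided among them in uncertain shares.

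Of 5 tested genes of canalicular export *Abcg8* was the single one called. Of 6 tested genes of sinusoidal uptake, *Slco1a1*, an organic anion carrier, fell in both genotypes, from 239 to 116 CPM in GRf/f (-1.04) and from 171 to 70.0 CPM in GRmKO liver (-1.28). Its GRf/f call was lost when genes above 0 in either library were tested. *Slco1a4*, a related carrier, fell from 31.7 to 13.4 CPM in GRmKO liver (-1.21) and was at 16.8 and 11.5 CPM in GRf/f liver (-0.53, not called). *Ephx1*, microsomal epoxide hydrolase, rose from 463 to 951 CPM in GRmKO liver (1.04), a call lost with TMM or median-of-ratios factors and when genes above 0 in either library were tested, and went from 416 to 752 CPM in GRf/f liver (0.85, not called). Of the 3 tested genes of sinusoidal efflux, *Abcc3*, which exports conjugates into blood, fell from 151 to 66.8 CPM in GRf/f liver (-1.17) and was at 152 and 100.4 CPM in GRmKO liver (-0.60, not called). The *Slco* genes belong to a cluster of close relatives, and reads may be shared among them.

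Of 13 tested receptors and regulators, *Onecut1*, a hepatocyte transcription factor, fell in GRf/f liver from 24.9 to 10.1 CPM (-1.26) and was at 21.4 and 12.5 CPM in GRmKO liver (-0.76, not called). The receptor pair through which intestinal FGF15 lowers *Cyp7a1* was not called. *Fgfr4* was at 27.6, 36.5, 27.4 and 37.1 CPM and *Klb* at 16.9, 24.2, 20.3 and 28.1 CPM in GRf/f vehicle, GRf/f CORT, GRmKO vehicle and GRmKO CORT. *Nr5a2*, the LRH-1 gene, was at 41.8, 36.0, 41.6 and 40.6 CPM in that order. *Hnf4a*, an HNF4 gene, was at 325, 443, 530 and 303 CPM in that order and was not called. Its log2 change with CORT was 0.45 in GRf/f and -0.80 in GRmKO liver. The difference between these, -1.25 (-1.32 to -1.19), could not be tested over mice. *Fgf15* was listed at 0 in all 4 liver libraries.

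Of 4 tested enzymes that modify bile acids, *Cyp3a11*, a hydroxylase of steroids and bile acids, rose from 1507 to 6386 CPM in GRf/f liver (2.08) and went from 2438 to 4194 CPM in GRmKO liver (0.78, not called). *Sult2a8*, a sulfotransferase, fell from 419 to 177 CPM in GRf/f (-1.24) and from 482 to 177 CPM in GRmKO liver (-1.44). *Ugt1a1*, a glucuronosyltransferase, fell from 666 to 307 CPM in GRf/f liver (-1.12) and was at 661 and 418 CPM in GRmKO liver (-0.66, not called). *Ugt2b1* fell from 876 to 412 CPM in GRmKO liver (-1.09) and was lower there than in GRf/f liver under CORT (412 against 931 CPM, -1.18). These 4 genes have near-identical relatives or share exons with them, and their values are uncertain to that extent.

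**Figure D5:**
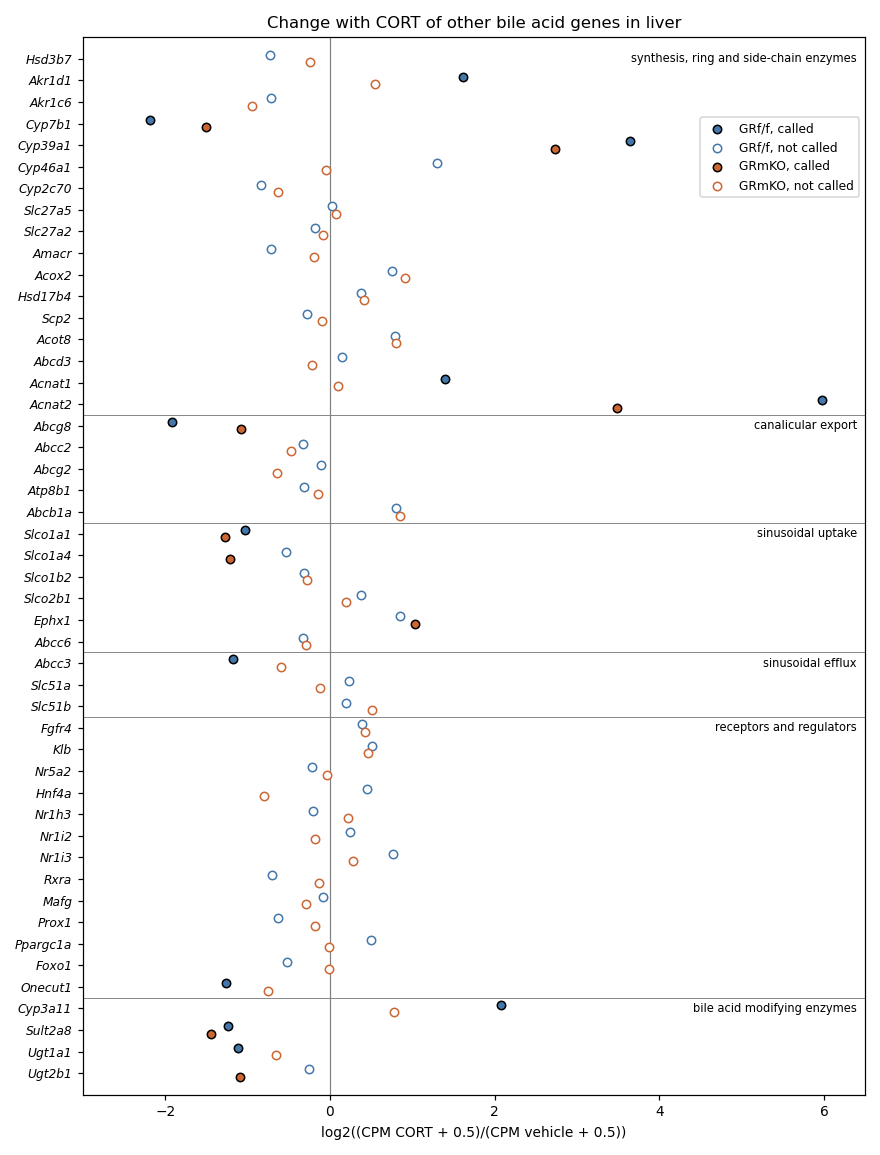
Log2 change with CORT of the 48 other bile acid genes tested, by function, in GRf/f (blue) and GRmKO (orange) liver, filled where called. *Acnat2* and *Cyp39a1* lie farthest to the right, and *Cyp7b1* and *Abcg8* lie farthest to the left in GRf/f liver.

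Other gene groups moved with the same treatment, and their part in the members' changes was not tested. Of 5 Kupffer cell markers, *Clec4f*, *Vsig4*, *Cd5l* and *Adgre1* fell with CORT in GRf/f liver and none was called in GRmKO liver. The fifth, *Marco*, was at 3.26 and 6.88 CPM in GRf/f vehicle and CORT and at 2.32 and 5.14 CPM in GRmKO vehicle and CORT, not called. It and the other markers below that were not called are named after their values were seen. The summed level of the list was 137 CPM in GRf/f vehicle, 47.7 in GRf/f CORT, 110 in GRmKO vehicle and 68.8 in GRmKO CORT, and in bulk RNA fewer cells and less RNA per cell cannot be told apart. Of 7 endothelial and stellate markers, *Clec4g* and *Kdr* fell in GRf/f liver, with sums of 188 to 266 CPM over the 4 libraries. In the same list *Pecam1* was at 2.42 and 6.29 CPM and *Dcn* at 94.6 and 107 CPM in GRf/f vehicle and CORT, neither called. Of 7 cholangiocyte markers, 5 were tested and *Sox9* rose in GRf/f liver from 2.01 to 17 CPM, with sums of 25.5 to 45.5 CPM. In GRf/f vehicle and CORT, *Krt19* was at 0.955 and 0.830 CPM and *Krt7* at 0.813 and 0.634 CPM. *Epcam* was at 0.525 and 0.548 CPM and *Spp1* at 20.6 and 26.4 CPM there, and none of these was called. *Cftr* was listed at 0 in both GRf/f libraries and *Tspan8* in both CORT libraries. *Apoa1* and *Serpina1e*, both hepatocyte markers, fell with CORT in GRf/f liver, and *Serpina1e* fell in GRmKO liver too. *Alb*, which makes up most of that list, was at 49853 and 83251 CPM in GRf/f vehicle and CORT and at 71267 and 111499 CPM in GRmKO vehicle and CORT, not called.

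The 8 pericentral markers, genes of the hepatocytes around the central vein, where *Cyp7a1* is mainly expressed, summed to 11700 CPM in GRf/f vehicle and 11411 in GRmKO vehicle but to 5617 and 5911 CPM in the CORT libraries. Most of that difference lay in *Cyp2e1*, at 8738 and 3557 CPM in GRf/f vehicle and CORT and at 8707 and 3858 CPM in GRmKO vehicle and CORT. *Glul* lay the other way, at 1016 and 1216 CPM in GRf/f and at 942 and 1234 CPM in GRmKO liver, not called. In GRf/f liver *Cyp2e1* and *Cyp1a2* fell and *Rhbg* rose. In GRmKO liver *Cyp2e1*, *Cyp1a2* and *Oat* fell, of which *Cyp1a2* lost its call when genes above 0 in either library were tested. The 8 periportal markers summed to 9339 to 11526 CPM, with *Pck1* lower with CORT in GRf/f liver and higher in GRmKO than in GRf/f liver under CORT. Markers of that list that were not called lay on both sides in GRf/f liver. From vehicle to CORT, *Arg1* went from 973 to 1543 CPM, *Cyp2f2* from 2084 to 2534 CPM and *Ass1* from 4779 to 3872 CPM. *Rhbg* was lower in GRmKO than in GRf/f liver under CORT.

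Of 12 clock genes, 10 were tested. *Per1* and *Arntl* were not, because each was at 0 in at least 1 library. In GRf/f vehicle, GRf/f CORT, GRmKO vehicle and GRmKO CORT, *Per1* was at 26.3, 0, 0 and 4.82 CPM. *Arntl* was at 0.573, 13.9, 0 and 3.28 CPM in that order. In GRf/f liver *Dbp*, *Per3* and *Ciart* fell with CORT and *Nfil3* and *Npas2* rose, and in GRmKO liver *Dbp* and *Ciart* fell. *Dbp*, a clock-driven activator of *Cyp7a1*, was at 124 CPM (119 to 129) in GRf/f vehicle, 2.97 CPM (2.32 to 3.83) in GRf/f CORT, 74.1 CPM (70.5 to 77.9) in GRmKO vehicle and 31.6 CPM (29.3 to 34.1) in GRmKO CORT. Between genotypes under CORT, *Dbp* was higher and *Npas2* lower in GRmKO liver. The hour at which livers were taken was not given in the sources used here, and its part in these values was not tested.

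Outside the liver, 8 of the 10 members stayed at or below 2.84 CPM in all 8 libraries of gastrocnemius and gonadal WAT. *Cyp27a1* was at 98.3 CPM in GRf/f vehicle, 79.6 in GRf/f CORT, 51.3 in GRmKO vehicle and 41.9 in GRmKO CORT gastrocnemius, and at 37.6 to 59.8 CPM in WAT. *Abcb4* was at 149, 163, 93.3 and 117 CPM in gastrocnemius in the same order, and at 1.36 to 2.94 CPM in WAT. In gastrocnemius both genes were thus lower in the GRmKO libraries than in the GRf/f libraries. The retained transcript of these genes was the same in all 3 tissues.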

How the data were processed

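For RNA sequencing of 12 pooled libraries the authors deposited expected counts, that is estimated counts, not scaled to a common depth. By the study's methods, 100-base paired reads were quantified with Salmon 1.2.1 on GENCODE M20 protein-coding transcripts (build GRCm38, given as mm10 in the submitters' processing notes) and imported in R 3.5.0 with tximport on its length-scaled scale, and 1 transcript entry with the largest total was kept per symbol. An entry was treated as a transcript standing for its gene, and 6 of the 10 members have more than 1 protein-coding transcript.

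CPM is the expected count over the library total, with 95% Wilson intervals. Ratios of libraries carry exact (Clopper-Pearson) intervals on rounded counts, without the 0.5 CPM added for log2 changes, and differences between changes carry normal-approximation intervals. NOISeq, the method of the study, was written out in Python 3.11.15 (numpy 2.4.6, scipy 1.17.1, numba 0.67.0) with its settings (5 simulated technical samples at 20% of the depth, variability 0.02, no length correction, a 0 set to 0.5, probability of at least 0.9) and tested on simulated data. It was run over genes above 0 in all 4 liver libraries. TMM (edgeR 4.0.16) and median-of-ratios factors (DESeq2 1.42.0) served as alternative scalings. No 2 libraries held the same values within sampling noise. Gene models came from GENCODE M21 (GRCm38) and promoters from RefSeq. The coordinates in parentheses after a member are the span of its whole gene, and the exons are those of the retained transcript.

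The members and lists were chosen with earlier results of these data known. All 10 members are named. Of other bile acid lists the genes called in at least 1 comparison and *Abcg8*, *Cyp7b1*, *Klb*, *Fgfr4* and *Nr5a2* are named. Of clock, zonation and cell type lists the called genes are named, with *Dbp* and *Nr3c1* beside a result. Other genes without a call are named outside this rule, some after their values were seen. Among them are *Hnf4a*, *Fgf15*, *Per1*, *Arntl* and several zonation and cell type markers.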

Additional observations from a re-analysis of the deposited data

Results flagged for a closer look

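For 3 members the direction of a change with 1 library on each side differed between groups, with each counting interval keeping a single sign. *Cyp27a1* had a log2 change with CORT of -0.24 in GRf/f and 0.085 in GRmKO liver. *Baat* differed between genotypes (GRmKO over GRf/f) by 0.28 under vehicle and by -0.21 under CORT. *Slc10a1* differed between genotypes by 0.12 under vehicle and by -0.042 under CORT. None of these 6 changes was called, and with 1 library per group the differences between them were not tested. The genotype differences of *Cyp7a1*, *Abcb11* and *Nr1h4* also changed sign between vehicle and CORT. Their counting intervals under CORT held both signs, and none of these differences was called.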

How the results depend on the processing

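Each group is 1 library from 3 pooled mice, so the spread between mice is unknown and no library could be left out. No paired analysis was possible because each group has 1 library and the labels carry no replicate number. The calls of *Cyp8b1* and *Abcg5* with CORT in GRf/f liver, of *Cyp7a1* with CORT in GRmKO liver, and of *Nr0b2* and *Cyp8b1* between genotypes under CORT held under all 7 NOISeq alternatives. The call of *Cyp8b1* with CORT in GRmKO liver was lost with TMM or median-of-ratios factors, where *Abcg5* was gained, and when genes above 0 in either library were tested, which left 1 member called.

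With CORT in GRf/f liver, 4 members were called with a mean of at least 10 counts (*Cyp7a1* and *Nr0b2* gained), 6 at a threshold of 0.8 and 7 with technical samples at the depth of the whole library. With CORT in GRmKO liver 4 members were called at 0.8 and 4 at whole depth. Between genotypes under vehicle these were 3 and 3 members (*Abcg5*, *Cyp8b1* and *Nr0b2*). Over all genes, a threshold of 0.8, whole depth and a change of at least 2-fold called 1313, 1948 and 1451 genes with CORT in GRf/f, 729, 1168 and 701 in GRmKO liver, 255, 475 and 287 between genotypes under vehicle, and 502, 844 and 589 under CORT. A mean of at least 10 counts called 149 and 265 genes between genotypes under vehicle and CORT, and genes above 0 in either library gave 139 under vehicle. The looser thresholds call more genes by construction, and the cause of the other shifts was not tested.

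With TMM or median-of-ratios factors the members' median between genotypes under CORT was -0.078 in place of 0.00, while the genes called higher and lower went from 74 and 100 to 59 and 113. With TMM factors those called with CORT in GRmKO liver went from 145 and 129 to 127 and 141. The members' median between genotypes under vehicle was 0.12 without the member of largest change. Of 160 recomputed member changes 2 turned sign, those of *Abcb11* between genotypes under CORT (-0.06 under both factors), and no change moved by more than 0.08. The same settings, applied to the 54 other bile acid genes after the data had been seen, lost the calls of *Slco1a1* (GRf/f, CORT) and *Ephx1* (GRmKO, CORT) as given above. With TMM or median-of-ratios factors or a mean of at least 10 counts *Acnat2* was gained between genotypes under CORT, and with that filter *Cyp7b1* was gained under vehicle. With CORT in GRmKO liver TMM factors gained *Akr1c6* and the filter *Akr1c6* and *Acox2*. At 0.8 and at whole depth, 21 and 22 of these genes were called with CORT in GRf/f liver (12 in the report), 16 and 20 in GRmKO liver (9), 6 and 7 between genotypes under vehicle (0), and 5 and 7 under CORT (2).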
